A study of Mus musculus with 77 samples.

Results

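Livers of mice taken off a MASH diet were compared after 24 and after 8 weeks back on chow. The members were chosen by treatment label alone: 8 libraries carry the label for chow reversal of 24 weeks and 7 that of 8 weeks, together 15 of the 77 liver libraries of the series. MASH, metabolic dysfunction-associated steatohepatitis, is a fatty liver disease in which lipid-laden hepatocytes, inflammation and scarring occur together. Male C57BL/6JRj mice, 5 to 6 weeks old on arrival, ate the Gubra Amylin NASH diet, rich in fat, fructose and cholesterol, for 34 weeks, and a liver biopsy taken 4 weeks before treatment was scored for steatosis and fibrosis to choose the animals. The included mice were single-housed from the biopsy on. Chow reversal mice then changed to regular chow and received vehicle under the skin once daily until they were killed at 8, 16 (n = 8) or 24 weeks. DIO-MASH mice that stayed on the diet were also compared. Of these, 9 at 8 weeks and 7 at 24 weeks received vehicle, and 7 and 8 received semaglutide. A further group was fed chow all along and given vehicle for 24 weeks (lifelong chow, n = 7). Mice on the diet with vehicle or semaglutide for 16 weeks (n = 8 each) entered the common fit of all 77 libraries. They also appear in the plot of distance from lifelong chow, but no comparison was made with them. Each library came from 1 mouse killed at 1 time, so time on chow and age cannot be told apart, and lifelong chow mice were available at 24 weeks only.

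After a diet that drives liver fibrosis is withdrawn, scar matrix is broken down, macrophages that took up lipid leave or change, and lymphocytes and antigen-presenting cells recede at their own pace. Hepatocytes, which make most liver RNA, also set the level of plasma proteins, and they switch to making acute phase proteins when cytokines signal injury or infection. The comparison of 24 with 8 weeks asks whether the liver goes on recovering after the first 8 weeks.

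Depth was 8907136 to 19739109 counts in the 15 libraries compared and 8883150 to 37631072 counts over all 77. All levels are CPM, counts scaled to a common library size with TMM factors, which correct for the make-up of a library, and libraries are numbered within a group in the order of their accessions, which is a name only. The test was edgeR's two-sided quasi-likelihood test over 14904 genes with Benjamini-Hochberg adjustment and a threshold of 0.05. In the 24-week group, 3 libraries stood apart. Library 7 lay at 81.7 on the first principal component of the 15 libraries and library 8 at 84.9 on the second. Their correlations with the gene-wise median of the other libraries of their group were 0.9446 and 0.9588, and that of library 2 was 0.9693, against 0.9780 to 0.9873 for the other 12 libraries. Library 7 was the outlying value of its group by Dixon's ratio in 579 genes, library 8 in 670 and library 2 in 501, while the other libraries had 26 to 228. Libraries 7 and 8 held 16708077 and 14533342 counts, within the 13181317 to 19739109 of the other 6. Their mitochondrial share was 3.54% and 5.38%, against 3.69% to 7.42%, so that of library 7 was the lowest. In the lifelong chow group, library 5 had raised acute phase genes, so the counts and distances that rest on chow are also given without it. Hepatocyte markers summed to 87989 CPM in library 7, 123194 CPM in library 8 and 108164 to 121020 CPM in the other 24-week libraries.

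**Figure D1:**
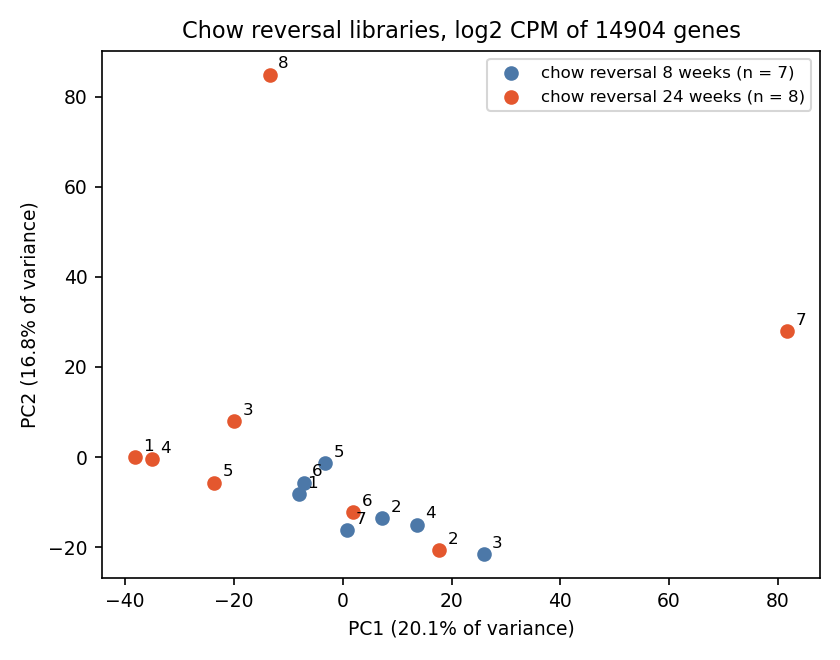
The first and second principal components of log2 CPM of 14904 genes are plotted on the x and y axes for the 7 libraries of 8 weeks (blue) and the 8 of 24 weeks (orange), with the library number beside each point. Library 7 of 24 weeks sits alone at 81.7 on the first component and library 8 alone at 84.9 on the second.

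Few genes changed between 8 and 24 weeks of chow. Past the threshold were 7 genes (0.047% of the genes tested), 6 higher (0.0403%) and 1 lower (0.00671%) at 24 weeks, while 1276 genes had an unadjusted p under 0.05 (8.56%). In 5 of the 6 that rose, library 7, library 8 or both stood far above the rest, and no gene passed the threshold in every fit that left out 1 of the 15 libraries. Without libraries 7 and 8 edgeR called 0 genes, with 857 at an unadjusted p under 0.05 (5.75%), and the smallest adjusted p was 0.585. DESeq2 with all libraries called 35 genes, 31 higher and 4 lower, and 43 when it neither replaced outlying counts nor filtered genes for them. Leaving out any 1 of libraries 1 to 6 of 24 weeks gave 30 to 58 calls, the most without library 2. Leaving out library 7 or library 8 gave 1 call. Leaving out 1 library of 8 weeks gave 0 to 6 calls, with 0 for library 3 or library 6. With only the 3 chow reversal groups in the fit edgeR called 1 gene, and with only the 2 groups compared, or with a term for sets of consecutive library numbers, it called 0.

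The 1 gene that fell was Hamp2 (ENSMUSG00000056978, GRCm38, chromosome 7, 30922372 to 30924681, minus strand), the paralog of hepcidin, the liver hormone that limits iron uptake. Its level ran from 12.4 CPM over a median of 58.7 to 109 CPM at 8 weeks, from 18.2 over 28.2 to 45.5 CPM at 16 weeks and from 6.42 over 10.3 to 20.8 CPM at 24 weeks. In lifelong chow it was 1.88, 3.13 and 10.9 CPM. Of the 8 libraries of 24 weeks, 5 lay below all 7 of 8 weeks, and the ranges overlapped only because libraries 2 and 5 of 8 weeks, at 12.4 and 16.99 CPM, were low. The log2 fold change at 24 against 8 weeks was -2.37 ± 0.48 (SE, adjusted p = 0.0136). Without libraries 7 and 8 it was -2.21 ± 0.53 with an unadjusted p of 8.7e-05 and an adjusted p of 0.651, and over the 15 fits with 1 library left out it stayed between -2.56 and -2.14, past the threshold in 10 of them.

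Hamp itself (chromosome 7, 30942368 to 30944032, minus strand), which encodes hepcidin, was named after its values were seen. It ran from 423 over 755 to 991 CPM at 8 weeks and from 218 over 773 to 2170 CPM at 24 weeks, where library 8 was the highest. Its log2 fold change was 0.37 ± 0.49 (adjusted p = 0.857). Of the 8 libraries of 24 weeks, 2 lay above and 1 below the 8-week range. Hamp and Hamp2 are close copies of one gene, and how the counting split reads that fit both is not given in the sources used here. The 250 bases before the RefSeq start of each are shown to set the start regions of the 2 copies side by side. RefSeq starts Hamp2 at 30924181, inside the span given above, so its window lies within that span. They are RefSeq sequences of GRCm38.p6, 5′ to 3′ on the gene's strand, chr7:30924182-30924431 for Hamp2 and chr7:30944030-30944279 for Hamp. Capitals mark GGCGCC, the core of the element through which bone morphogenetic protein signals act, and TTCNNNGAA, the core of STAT sites, through which interleukin 6 acts, on either strand.
Hamp2: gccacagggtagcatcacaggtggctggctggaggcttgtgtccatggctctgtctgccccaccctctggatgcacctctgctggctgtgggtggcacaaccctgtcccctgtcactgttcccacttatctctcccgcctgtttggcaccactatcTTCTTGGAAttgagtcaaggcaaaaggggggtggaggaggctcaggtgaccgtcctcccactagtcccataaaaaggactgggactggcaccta
Hamp: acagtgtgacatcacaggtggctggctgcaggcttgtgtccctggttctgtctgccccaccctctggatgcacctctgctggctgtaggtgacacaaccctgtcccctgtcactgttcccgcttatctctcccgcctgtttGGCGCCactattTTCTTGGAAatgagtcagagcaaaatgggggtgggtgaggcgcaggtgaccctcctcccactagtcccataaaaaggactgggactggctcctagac
Each window held 1 match of TTCNNNGAA, which 7.02% of the 32851 promoter windows of this length hold. GGCGCC was found once in Hamp and not in Hamp2, and in 9.59% of all windows.

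Zfp719 (chromosome 7, 43579610 to 43593235), a zinc finger protein gene, was the only gene past the threshold whose ranges did not overlap. It ran from 1.72 over 2.04 to 2.36 CPM at 8 weeks and from 2.56 over 3.45 to 5.82 CPM at 24 weeks, with libraries 7 and 8 the highest at 5.65 and 5.82 CPM. At 16 weeks it lay between, at 1.85, 2.51 and 3.17 CPM, and in lifelong chow at 2.50, 3.02 and 3.67 CPM. The log2 fold change was 0.90 ± 0.18 (adjusted p = 0.0136), and 0.63 ± 0.18 (adjusted p = 0.831) without libraries 7 and 8. Over all genes, 2 were higher and 4 lower at 24 weeks with no overlap between the groups (0.0134% and 0.0268% of the genes tested), named here after their values were seen. The other riser was Nebl, which encodes a nebulin-like actin-binding protein (1.11 to 2.95 CPM at 8 weeks, 3.07 to 5.14 CPM at 24 weeks, adjusted p = 0.169). The 4 lower genes were the chemokine gene Cxcl9, Pfkfb1, which encodes the liver enzyme that sets fructose 2,6-bisphosphate, Taz, which encodes the cardiolipin enzyme tafazzin, and Cct6b, which encodes a chaperonin subunit. Their adjusted p values lay between 0.194 and 0.459, so these 5 did not pass the test.

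The other 5 genes past the threshold had their highest values in library 7, library 8 or both. Ugt2b37, which encodes a glucuronidating enzyme, stood at 32.6 CPM in library 8 and at most at 2.26 CPM in the other 24-week libraries (0.247 to 0.720 CPM at 8 weeks), and 7 of the 8 libraries lay above the 8-week range. Its log2 fold change was 3.25 ± 0.61 (adjusted p = 0.0136) with all libraries and 1.09 ± 0.47 (adjusted p = 0.849) without libraries 7 and 8. Cxcl14, a chemokine gene, stood at 132 CPM in library 7 and at 1.81 to 4.68 CPM in the other 7, against 1.80 to 4.28 CPM at 8 weeks. Its log2 fold change of 2.72 ± 0.54 (adjusted p = 0.0136) became -0.03 ± 0.28 without libraries 7 and 8. Its rise thus came from 1 library.

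Syt12, which encodes a synaptotagmin, stood at 22.2 CPM in library 7 and 32.6 CPM in library 8, against 0.5264 to 2.26 CPM in the other 6 and 0.924 to 2.10 CPM at 8 weeks. Steap4, which encodes a metalloreductase induced in inflammation, stood at 486 and 823 CPM, against 79.4 to 157 CPM and 83.3 to 121 CPM. Mt2, which encodes a zinc-binding metallothionein, stood at 791 and 2293 CPM, against 6.47 to 52.98 CPM and 11.9 to 26.1 CPM. Their log2 fold changes were 2.53 ± 0.51, 1.36 ± 0.30 and 4.54 ± 0.97 (adjusted p = 0.0136, 0.0452 and 0.0352), and -0.25, 0.27 and -0.0013 without libraries 7 and 8. In lifelong chow, Mt2 ran from 2.56 over 6.28 to 230 CPM, the highest being library 5.

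**Figure D2:**
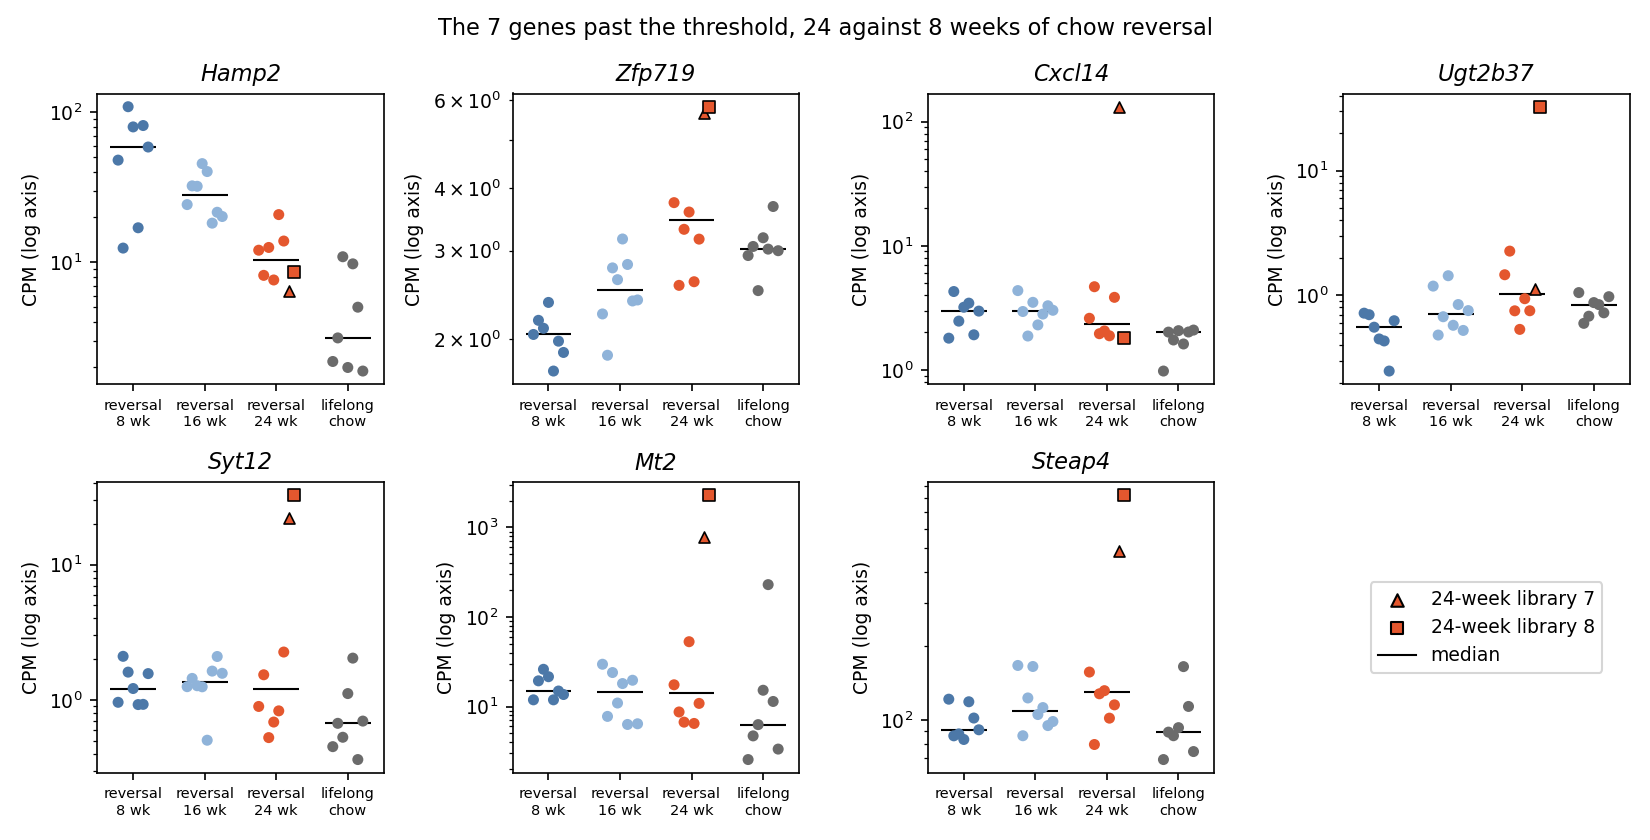
CPM on a log axis is plotted for the 7 genes past the threshold in the libraries of chow reversal at 8, 16 and 24 weeks and of lifelong chow, with the median as a bar, library 7 of 24 weeks as a triangle and library 8 as a square. Hamp2 was lower and Zfp719 higher in the 24-week libraries at large, while the highest values of the other 5 genes in chow reversal were those of library 7, library 8 or both.

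Mt1, the neighbour of Mt2 and also a metallothionein gene, moved with it: 878 CPM in library 7 and 2570 CPM in library 8, against 17.5 to 110 CPM in the other 6 and 28.1 to 72.9 CPM at 8 weeks (log2 fold change 3.27 ± 0.79, adjusted p = 0.0734). Metallothionein genes answer to zinc through the metal response element, read here as TGCACNC or TGCGCNC on either strand, and to glucocorticoids and cytokines. The 250 bases before each start (RefSeq, GRCm38.p6, plus strand, chr8:94172368-94172617 for Mt2 and chr8:94178839-94179088 for Mt1) are shown with these matches in capitals because both genes were high in the same libraries.
Mt2: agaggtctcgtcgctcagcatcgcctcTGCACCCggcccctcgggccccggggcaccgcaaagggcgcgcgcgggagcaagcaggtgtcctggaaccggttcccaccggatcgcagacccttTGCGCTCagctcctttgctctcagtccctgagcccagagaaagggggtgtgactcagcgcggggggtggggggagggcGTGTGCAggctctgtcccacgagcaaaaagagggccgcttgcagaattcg
Mt1: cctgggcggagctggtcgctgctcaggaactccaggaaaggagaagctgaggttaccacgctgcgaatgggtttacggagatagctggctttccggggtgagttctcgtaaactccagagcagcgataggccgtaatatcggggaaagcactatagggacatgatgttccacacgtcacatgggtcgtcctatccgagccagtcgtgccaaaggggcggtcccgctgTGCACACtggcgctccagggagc
Mt2 held 3 matches and Mt1 held 1, and 21.4% of all windows of this length hold at least 1. These counts hold for the windows shown, which depend on the RefSeq start of each gene. Bases beyond them were not searched, so the counts do not compare the whole promoters of the 2 genes. A match is a run of letters, and nothing was measured on binding here.

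Libraries 7 and 8 differed from their group in unlike ways, and the genes named for them were chosen after their values were seen. In both, acute phase genes were high. The 20 genes of that list summed to 95535 CPM in library 7 and 52174 CPM in library 8, against 17833 to 26309 CPM in the other 6 libraries and 20308 to 28801 CPM at 8 weeks. Saa1, which encodes serum amyloid A, stood at 3050 and 671.5 CPM, against 43.8 to 153 CPM in the other 6. Lcn2, which encodes the iron-siderophore binding lipocalin 2, stood at 914 and 458 CPM, against 11.01 to 34.05 CPM. Serpina3n, which encodes a protease inhibitor, was higher in library 8 (2508 CPM) than in library 7 (1013 CPM), with 288 to 393 CPM in the rest. Of the list, 0 members passed the threshold, and 12 lay higher and 0 lay lower before adjustment at p under 0.05 (6.21% and 2.35% of all genes). The median log2 fold change was 0.61 with all libraries and -0.035 without libraries 7 and 8, against 0.019 and -0.001 over all genes.

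In library 7, further genes stood far above the other 7 libraries of 24 weeks. Orm2, an acute phase gene, was at 1539 CPM (10.0 to 46.4 CPM in the other 7), the neutrophil protease gene Prtn3 at 93.5 CPM (at most 2.28 CPM) and the fetal liver RNA H19 at 9.72 CPM (at most 0.443 CPM). Single livers of other groups were also high in these genes. Prtn3 was at 28.8 CPM in lifelong chow library 5 and 23.5 CPM in semaglutide library 2 of 24 weeks, and Orm2 at 511 and 226 CPM there. H19 reached 53.6 CPM in vehicle mice at 24 weeks, and Saa1 stood at 1670 and 2838 CPM in semaglutide libraries 2 and 8 of 24 weeks. Neutrophil markers as a list had 4 of 10 members tested, which summed to 13.8 CPM in library 7, 4.01 CPM in library 8 and 2.13 to 5.94 CPM in the rest. Library 7 also had the lowest values of several hepatocyte genes. The largest gap below the other 7 was that of Mup15, a major urinary protein gene, at 0 CPM against 90.3 to 621 CPM. Mup19 of the same family stood at 26.2 CPM against 4029 to 9659 CPM. The 29 tested sex-biased and growth hormone dependent genes had a mean log2 CPM of -1.475 relative to 8 weeks in library 7 and 0.226 in library 8. Cyp4a14, a PPAR-alpha target that hydroxylates fatty acids, stood at 3.06 CPM against 206 to 553 CPM, Cyp4a10 at 5.18 CPM against 200 to 509 CPM, and Sult2a8, a bile acid sulfotransferase gene, at 0.825 CPM against 382 to 742 CPM. The 28 genes of fatty acid oxidation and PPAR-alpha lay on average 1.91 lower than at 8 weeks on the log2 scale in library 7 and the 31 cytochrome P450 genes 1.67 lower, with -0.38 and -0.15 in library 8.

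In library 8, genes of unlike function stood far above the other 7 libraries of 24 weeks. Besides Ugt2b37, they included Srxn1, an antioxidant gene (562 CPM, against 38.2 to 54.5 CPM), Abhd2, a lipase gene (516 CPM, against 46.3 to 85.7 CPM), and Fkbp5, a glucocorticoid target gene (318 CPM, against 22.1 to 54.1 CPM). The growth factor gene Nrg4 was at 107 CPM against 5.84 to 19.1 CPM. The metal importer gene Slc39a10 stood at 18.2 CPM against 2.12 to 3.39 CPM, and with a smaller gap its relative Slc39a14 stood at 748 CPM against 107 to 229 CPM. The 2 largest gaps below the other libraries were in identifiers with near-identical or overlapping copies. For Nnt, which encodes the mitochondrial transhydrogenase, 1 of 2 overlapping identifiers was at 0 CPM against 21.3 to 39.4 CPM and the other at 34.5 CPM against 7.68 to 19.9 CPM. The sum of both was 34.5 CPM, within the 31.2 to 50.2 CPM of the other 7. Tmem254c was at 0 CPM against 31.9 to 69.5 CPM, and with its copies Tmem254a and Tmem254b it summed to 126 CPM against 164 to 319 CPM. Gaps above the other libraries held such cases too. The largest was that of the pseudogene Rpl35a-ps4, at 8.88 CPM against 0 CPM in the other 7, but 0 to 24.4 CPM at 8 weeks. For Zc3h11a, 1 identifier stood at 66.4 CPM against 0 to 17.5 CPM and another at 6.76 CPM against 46.0 to 71.9 CPM. How reads were split between such copies is not known here, so the values of single copies are uncertain. The 13 markers of B and plasma cells together summed to 39.5 CPM in library 8, 104 CPM in library 7 and 57.7 to 95.7 CPM in the rest. What made libraries 7 and 8 differ was not tested.

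**Figure D3:**
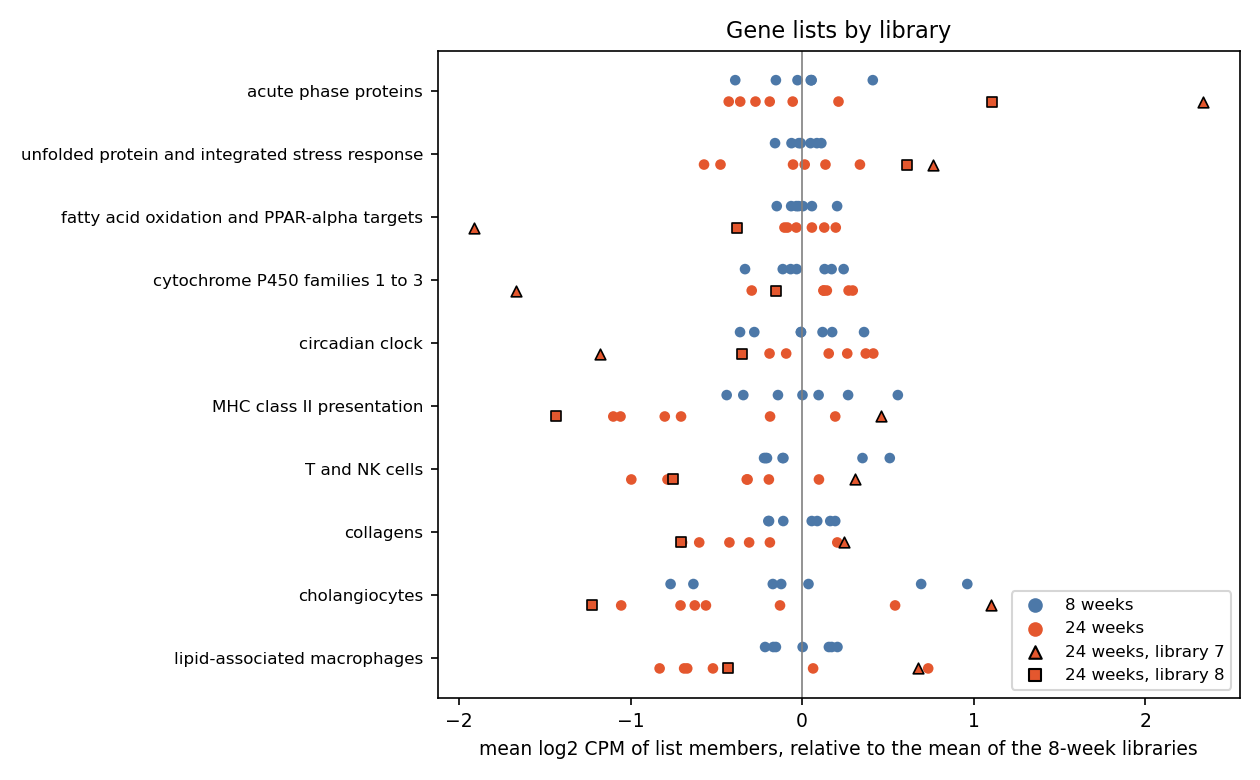
The x axis gives the mean log2 CPM of the members of 10 gene lists relative to the mean of the 8-week libraries, with 1 point for each library of 8 weeks (blue) and 24 weeks (orange), library 7 as a triangle and library 8 as a square. Acute phase genes were at 2.34 and 1.11 in libraries 7 and 8 and from -0.43 to 0.21 in the other 6, and fatty acid oxidation genes were at -1.91 in library 7.

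Genes that the diet had changed were followed to ask whether they moved further towards chow. They were picked from vehicle mice at 24 weeks against lifelong chow, a comparison with no chow reversal library in it, in which 3849 genes were higher and 3272 lower (25.8% and 22%, together 47.8% of the genes tested). Of the raised genes, 3 rose and 1 fell at 24 against 8 weeks of chow, and of the lowered genes 0 passed the threshold. The median log2 fold change of the raised genes was -0.04 with all libraries, and 56.7% of them had a value below 0, against 46.4% of all genes. Without libraries 7 and 8 the median was -0.15 and the share 71.9%, against 50.3% of all genes, with 0 genes past the threshold. For the 2467 genes raised at least 2-fold, 107 lay lower (4.34%) and 92 lay higher (3.73%) before adjustment with all libraries, where 2.35% of all genes were lower and 6.21% higher. Without libraries 7 and 8, 249 lay lower (10.1%) and 15 higher (0.608%), where 2.76% of all genes were lower and 2.99% higher. The lowered genes had a median of 0.005 with all libraries and of 0.052 without libraries 7 and 8. These shares count genes of the same few mice, and genes are not independent of each other.

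Each library was also placed on the path to chow. The median log2 difference of the 2467 diet-raised genes from the lifelong chow mean was 0.589 to 0.987 in the 7 libraries of 8 weeks, with a median of 0.782. In the 24-week libraries numbered 1 to 8 it was 0.284, 0.740, 0.436, 0.344, 0.479, 0.954, 1.405 and 0.228. Libraries 1, 3, 4, 5 and 8 thus lay below all 7 libraries of 8 weeks, libraries 2 and 6 lay within their range and library 7 above it. At 16 weeks the range was 0.477 to 1.271, in lifelong chow -0.156 to 0.449 and in vehicle mice at 24 weeks 1.551 to 1.869. The share of the 2467 genes with a level below every 8-week library was 39.2%, 30.2%, 36.9%, 28.3% and 42.4% in libraries 1, 3, 4, 5 and 8, and 13.7%, 8.03% and 4.01% in libraries 2, 6 and 7. Over all genes that share was 15.8% to 27.6%. In library 7, 1284 of the 2467 genes (52%) lay above every 8-week library, against 24.4% of all genes in that library. Without chow library 5 the diet raised 2553 genes at least 2-fold, 2407 of them in the first set. The 8-week libraries then ran from 0.654 to 1.062 and those of 24 weeks from 0.313 to 1.468, again with 5 below and 1 above the 8-week range.

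For the 623 genes lowered at least 2-fold, libraries 7 and 8 were the farthest from chow of the group, at -0.943 and -0.718, and the other 6 ran from -0.390 to -0.113, against -0.477 to -0.178 at 8 weeks. Library 8 thus had diet-raised genes nearest to chow and diet-lowered genes away from it.

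**Figure D4:**
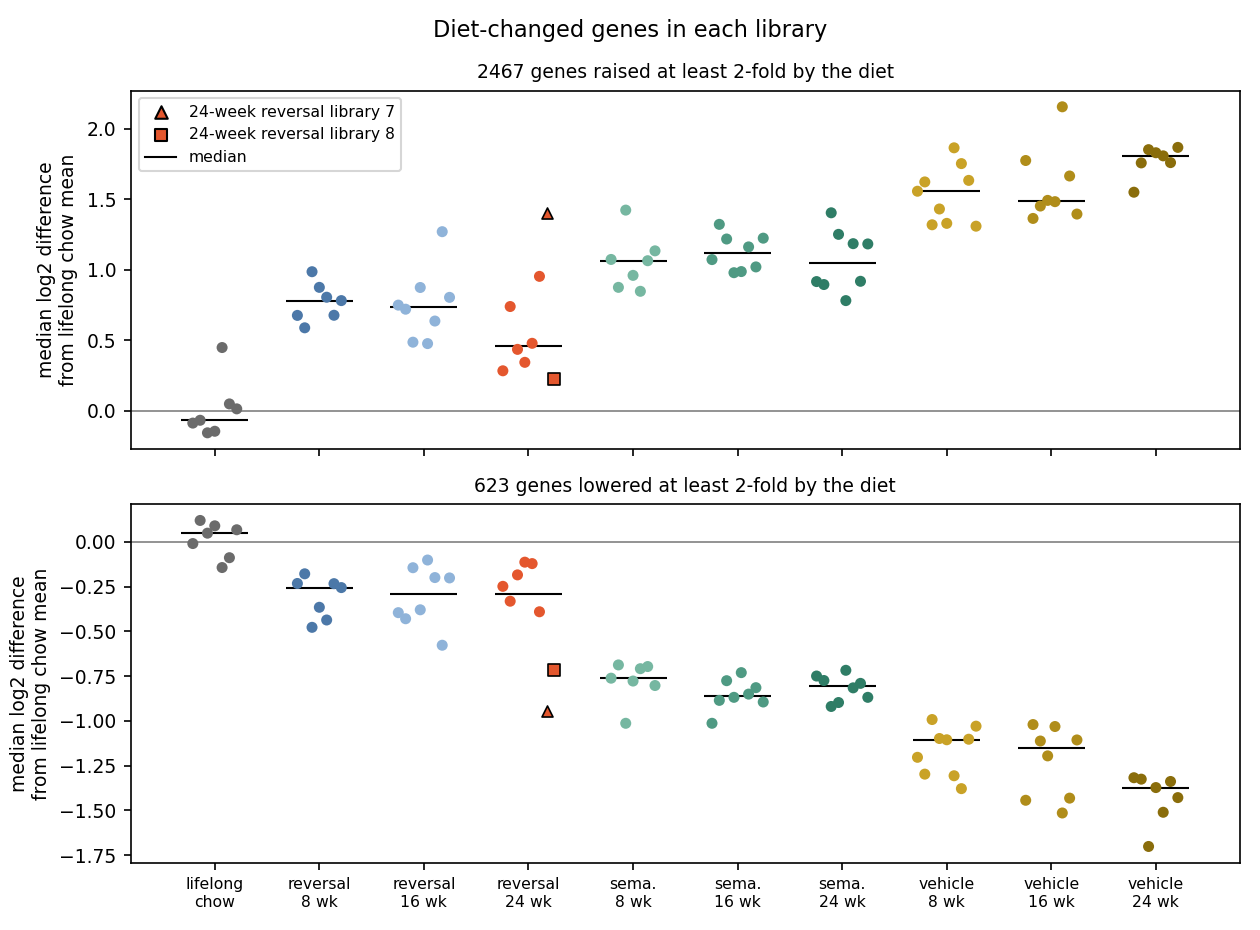
Each point is 1 library, and the y axis gives the median log2 difference from the lifelong chow mean over 2467 genes raised (top) or 623 genes lowered (bottom) at least 2-fold by the diet, for all 10 groups, with group medians as bars. The 24-week chow reversal libraries ran from 0.228 to 1.405 in the top panel, with library 7 (triangle) highest and library 8 (square) lowest, and the 8-week libraries from 0.589 to 0.987.

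Genes of scar matrix and of scar-associated macrophages are described library by library, and none of them passed the test. Col1a1, Gpnmb, Trem2, Mmp12 and Lgals3 belong to the 2467 diet-raised genes that set the order of libraries above, so their order is part of that one and not a further result. Col1a1, the main scar collagen gene, was 16.8 to 34.2 CPM at 8 weeks (median 26.7). At 24 weeks it stood at 8.16 to 12.9 CPM in libraries 1, 3, 4, 5 and 8 and at 33.1, 34.9 and 34.6 CPM in libraries 2, 6 and 7, with 3.58 to 12.1 CPM in lifelong chow. Its log2 fold change was -0.41 ± 0.33 (adjusted p = 0.762). Gpnmb, a gene of lipid-associated macrophages, stood at 4.64 to 8.00 CPM in those 5 libraries, all below the 8-week range of 11.7 to 29.9 CPM, and at 71.5, 39.1 and 20.3 CPM in libraries 2, 6 and 7. Trem2, the lipid receptor of these macrophages, took 1.203 to 2.32 CPM in the same 5 and 17.4, 6.32 and 8.89 CPM in the other 3, against 3.48 to 8.92 CPM at 8 weeks. Library 2 had the highest levels of Mmp12, a macrophage elastase gene (21.4 CPM, against 1.79 to 7.46 CPM in the other 7), and of Lgals3, which encodes galectin 3 (48.2 CPM, against 5.64 to 19.8 CPM). The 35 genes of matrix remodelling summed to 2993 CPM in library 7 and 2475 CPM in library 8, both above the 1551 to 2182 CPM of 8 weeks, and to 1421 to 2157 CPM in the other 6. Their mean log2 CPM relative to the 8-week mean was 0.402 in library 7 and -0.658 in library 8. That mean ran from -0.317 to 0.274 at 8 weeks and from -0.814 to 0.323 in the other 6. Library 8 thus lay above the 8-week range by the sum and below it by the mean.

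Of the 19 collagen genes, 0 passed the threshold at 24 against 8 weeks, with a median log2 fold change of -0.285 both with and without libraries 7 and 8. The matrix remodelling list (35 genes) had a median of -0.18, the stellate cell list (24 genes) one of -0.02 and the lipid-associated macrophage list (16 genes) one of -0.01, and -0.29, -0.16 and -0.16 without libraries 7 and 8, again with 0 genes past the threshold. Timp1, Timp2 and Mmp13, which encode inhibitors and an enzyme of matrix breakdown, had log2 fold changes of 0.18 ± 0.43, -0.18 ± 0.22 and -0.59 ± 0.45 (adjusted p = 0.924, 0.843 and 0.742). Their ranges overlapped, from 0.308 to 1.54 CPM at 8 weeks and 0.221 to 2.89 CPM at 24 weeks for Timp1. In bulk liver, fewer cells of a type and less RNA per cell cannot be told apart.

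The list with the lowest median was that of MHC class II genes, by which cells present antigen to T cells. Of 10 MHC class II genes, 0 passed the threshold, and 6 were lower at an unadjusted p under 0.05, where 2.35% of all genes did. The median log2 fold change was -0.52, and -0.61 without libraries 7 and 8. H2-Aa, a chain of the class II molecule, was 53.5 to 117 CPM at 8 weeks and 25.4 to 98.05 CPM at 24 weeks (log2 fold change -0.53 ± 0.24, adjusted p = 0.542), against 10.1 to 43.3 CPM in lifelong chow. Libraries 1, 3, 4, 5 and 8 lay below all 7 of 8 weeks for H2-Aa, H2-Ab1, H2-Eb1, H2-DMa and Cd74, the invariant chain gene. These 5 genes are also among the 2467 diet-raised genes. Ciita, the master regulator of class II genes, was below the 8-week range in 7 of the 8 libraries (1.10 to 2.26 CPM, against 2.41 to 3.83 CPM) and above it in library 7 (4.54 CPM), with a log2 fold change of -0.45 ± 0.24 (adjusted p = 0.611). Ciita too is among the 2467 diet-raised genes that set the order of libraries above.

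Cxcl9, the interferon-induced chemokine gene that draws T cells, was 12.5 to 22.7 CPM at 8 weeks and 6.99 to 10.8 CPM at 24 weeks, with no overlap and with libraries 2, 7 and 8 inside the 24-week range. At 16 weeks it ran from 8.54 to 16.8 CPM and in lifelong chow from 2.65 to 9.10 CPM. The log2 fold change was -0.88 ± 0.27 (unadjusted p = 0.00172, adjusted p = 0.219), so the gene did not pass the test. Cxcl9 is also among the 2467 diet-raised genes that set the order of libraries above. Ccl5, another T-cell chemokine gene, was 2.81 to 7.78 CPM at 8 weeks and 1.37 to 5.18 CPM at 24 weeks, the highest being library 7 (log2 fold change -0.92 ± 0.42, adjusted p = 0.536). Of the 17 T and NK cell markers tested, 0 passed the threshold and the median was -0.35. They summed to 19.4 to 31.8 CPM at 8 weeks, to 36.4 CPM in library 7, 10.8 CPM in library 8 and 12.1 to 28.8 CPM in the other 6. Cholangiocyte markers (11 genes) had a median of -0.17, and of -0.59 without libraries 7 and 8, with sums of 569 CPM in library 7 and 57.4 CPM in library 8 against 73.2 to 207 CPM in the other 6 and 88.7 to 312 CPM at 8 weeks.

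Cd163, a scavenger receptor gene of resident macrophages, was higher in most 24-week libraries. It ran from 0.0639 over 0.185 to 0.778 CPM at 8 weeks and from 0.146 over 1.21 to 4.44 CPM at 24 weeks, 5 of 8 libraries lying above the whole 8-week range. Lifelong chow was higher still, at 3.44 to 10.97 CPM. The log2 fold change was 2.15 ± 0.66 (adjusted p = 0.214) and 2.16 without libraries 7 and 8. Levels of Cd163 under 1 CPM rest on few counts. Of the 13 Kupffer cell markers, 8 had a log2 fold change below 0, against 46.4% of all genes. Without libraries 7 and 8 these were 10 members and 50.3% of all genes. The list medians were -0.04 with all libraries and -0.32 without libraries 7 and 8, with 0 genes past the threshold.

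Among the clock genes, Noct, a rhythmic gene for an enzyme that removes phosphate from NADPH, was 22.2 to 61.6 CPM at 8 weeks (median 30.5) and 29.4 to 180 CPM at 24 weeks (median 108). In lifelong chow the median was 107 CPM and the highest value 222 CPM. Its log2 fold change was 1.52 ± 0.37 (adjusted p = 0.0788) with and 1.51 ± 0.38 without libraries 7 and 8, and DESeq2 gave an adjusted p of 0.0226. Other clock genes differed by library: Dbp, an output gene, was at 2.24 CPM in library 7 against 50.1 to 242 CPM in the other 7, and Arntl, which encodes the clock activator BMAL1, was highest there at 18.5 CPM (0.707 to 7.22 CPM in the other 7). Of the 20 clock genes, 0 passed the threshold and the median was 0.05. The hour of sampling is not given in the sources used here, and its part in these values was not tested.

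Across all 40 lists, Cxcl14 among the 27 chemokine genes and Ugt2b37 among the 30 tested conjugation genes were the only members past the threshold, with the values given above. In the unfolded protein and stress response list 6 of 21 members were higher before adjustment, where 6.21% of all genes were, and its median of 0.22 was 0.045 without libraries 7 and 8. Asns, the asparagine synthetase gene of that list, stood at 8.60 and 6.21 CPM in libraries 7 and 8, at 0.277 to 1.205 CPM in the other 6 and at 0.0783 to 1.32 CPM at 8 weeks (adjusted p = 0.0768), but at 1.86 to 11.5 CPM in lifelong chow. Lists of metabolism stayed near the median of all genes: cholesterol synthesis -0.09, fatty acid synthesis -0.09, PPAR-alpha targets and fat oxidation -0.08, bile acids -0.01, NRF2 targets 0.015 and methionine metabolism -0.10. Cell division had a median of 0.30 with all libraries and 0.04 without libraries 7 and 8. The remaining medians lay between -0.41 (mesothelium, 5 genes) and 0.54 (skeletal muscle, 1 gene), and exocrine pancreas markers had only 2 of 16 members tested.

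The 16-week group was set between the others. At 16 against 8 weeks edgeR called 0 genes, with 135 at an unadjusted p under 0.05 (0.906%), and DESeq2 called 1. At 24 against 16 weeks 20 genes were higher and 0 lower (0.134%), and without libraries 7 and 8 the count was 0, with 342 at an unadjusted p under 0.05 (2.29%, against 5.96% with them). A slope over 8, 16 and 24 weeks gave 40 genes, 38 rising and 2 falling. These comparisons share libraries with the main one.

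Distance from lifelong chow was measured with the same 7 chow libraries at each time. At 8 weeks 1076 genes were higher and 187 lower than in chow (7.22% and 1.25%, together 8.47%). At 16 weeks the counts were 1083 and 139 (7.27% and 0.933%, together 8.2%) and at 24 weeks 852 and 136 (5.72% and 0.913%, together 6.63%). Without libraries 7 and 8, 421 were higher and 60 lower at 24 weeks (2.82% and 0.403%), and without chow library 5 as well, 694 and 46. The fit without libraries 7 and 8 alone gave 1242 higher and 221 lower at 8 weeks and 1243 and 155 at 16 weeks. It holds fewer libraries at 24 weeks than the main fit. With only chow library 5 left out the counts were 1312 and 174 at 8 weeks, 1343 and 136 at 16 weeks and 1183 and 149 at 24 weeks. Of the MHC class II genes, 9 of 10 were higher than in chow at 8 weeks and 8 at 24 weeks, and of the collagens 10 of 19 and 7. Without chow library 5 these were 10 and 9 of the MHC class II genes and 12 and 11 of the collagens. Col1a1 was higher by 2.32 on the log2 scale at 8 weeks and by 1.92 at 24 weeks (adjusted p = 5.2e-06 and 0.000183). Gpnmb was higher by 5.45 and 5.57 (adjusted p = 2.7e-09 at both times). At 24 weeks both genes were split into low and high libraries, as given above. For Gpnmb the low libraries lay below the 8-week range, so the group difference does not describe them. The 2467 diet-raised genes had a median difference of 0.855 at 8 weeks and 0.764 at 24 weeks, against 1.93 in vehicle mice at 24 weeks. Hamp2 was higher than in chow at 8 weeks (3.54, adjusted p = 2.0e-06) and did not pass the test at 24 weeks (1.18, adjusted p = 0.168). Without chow library 5 the differences at 8 and 24 weeks were 2.69 and 2.28 for Col1a1, 5.72 and 5.84 for Gpnmb and 3.81 and 1.44 for Hamp2 (adjusted p = 0.0827 at 24 weeks), and the diet-raised genes had medians of 0.990 and 0.906. These comparisons share the chow libraries, so the drop in counts was not tested as such.

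Mice that stayed on the diet changed in other genes over the same weeks. Vehicle at 24 against 8 weeks had 109 genes higher and 9 lower (0.731% and 0.0604%). The change from 8 to 24 weeks differed between chow reversal and vehicle in 32 genes (0.215%), of which 31 (0.208%) had the lower and 1 (0.00671%) the higher change in chow reversal. The vehicle log2 fold change, which enters this difference, was above 0 in all 31, and 28 of the 32 passed the threshold without libraries 7 and 8, where 69 genes did (0.463%), 13 of them higher (0.0872%) and 56 lower (0.376%). Maoa, which encodes monoamine oxidase A, was 8.15 to 11.3 CPM in vehicle mice at 8 weeks and 14.1 to 126 CPM at 24 weeks, whereas chow reversal had 8.48 to 16.1 CPM and 7.95 to 17.1 CPM at these times. The difference of the changes was -2.26 ± 0.32 on the log2 scale (adjusted p = 1.7e-05). Cbr3, a carbonyl reductase gene, was 2.75 to 8.43 CPM at 8 weeks and 15.5 to 254.5 CPM at 24 weeks in vehicle mice, and took 0.989 to 2.22 CPM and 0.732 to 8.51 CPM in chow reversal (difference -3.58 ± 0.65, adjusted p = 0.00141).

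For Cbr1, the other carbonyl reductase gene here, the difference was -1.58 ± 0.25 (adjusted p = 0.000165), for Sfn, which encodes 14-3-3 sigma, -3.26 ± 0.53 (adjusted p = 0.000180), for Il1f9, an interleukin 1 family gene, -4.83 ± 0.80 (adjusted p = 0.000232) and for Mgst3, a microsomal glutathione transferase gene, -1.29 ± 0.25 (adjusted p = 0.00642). Over all genes tested, 0.208% had a lower change in chow reversal past the threshold. Of the list of targets of NRF2, the oxidative stress regulator, 3 of 20 members, of the conjugation list 3 of 30, of the P450 list 2 of 31 and of the interferon-stimulated genes 2 of 24 did. They include Nqo1 (-1.44), Gstm1 (-1.32), Gstm4 (-1.04), Gsta1 (-2.59), Rsad2 (-1.70) and Oasl1 (-1.59), named after their values were seen. In chow reversal the log2 fold changes of these 6 genes lay between -0.17 and 0.36, and in vehicle mice between 1.05 and 2.94. H2-DMa was the 1 MHC class II gene past the threshold, with a difference of -1.203 ± 0.29 (adjusted p = 0.0386), and Hamp2 also passed (-3.04 ± 0.65, adjusted p = 0.0130). Nebl was the 1 gene with the higher change in chow reversal (1.54 ± 0.37, adjusted p = 0.0444).

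**Figure D5:**
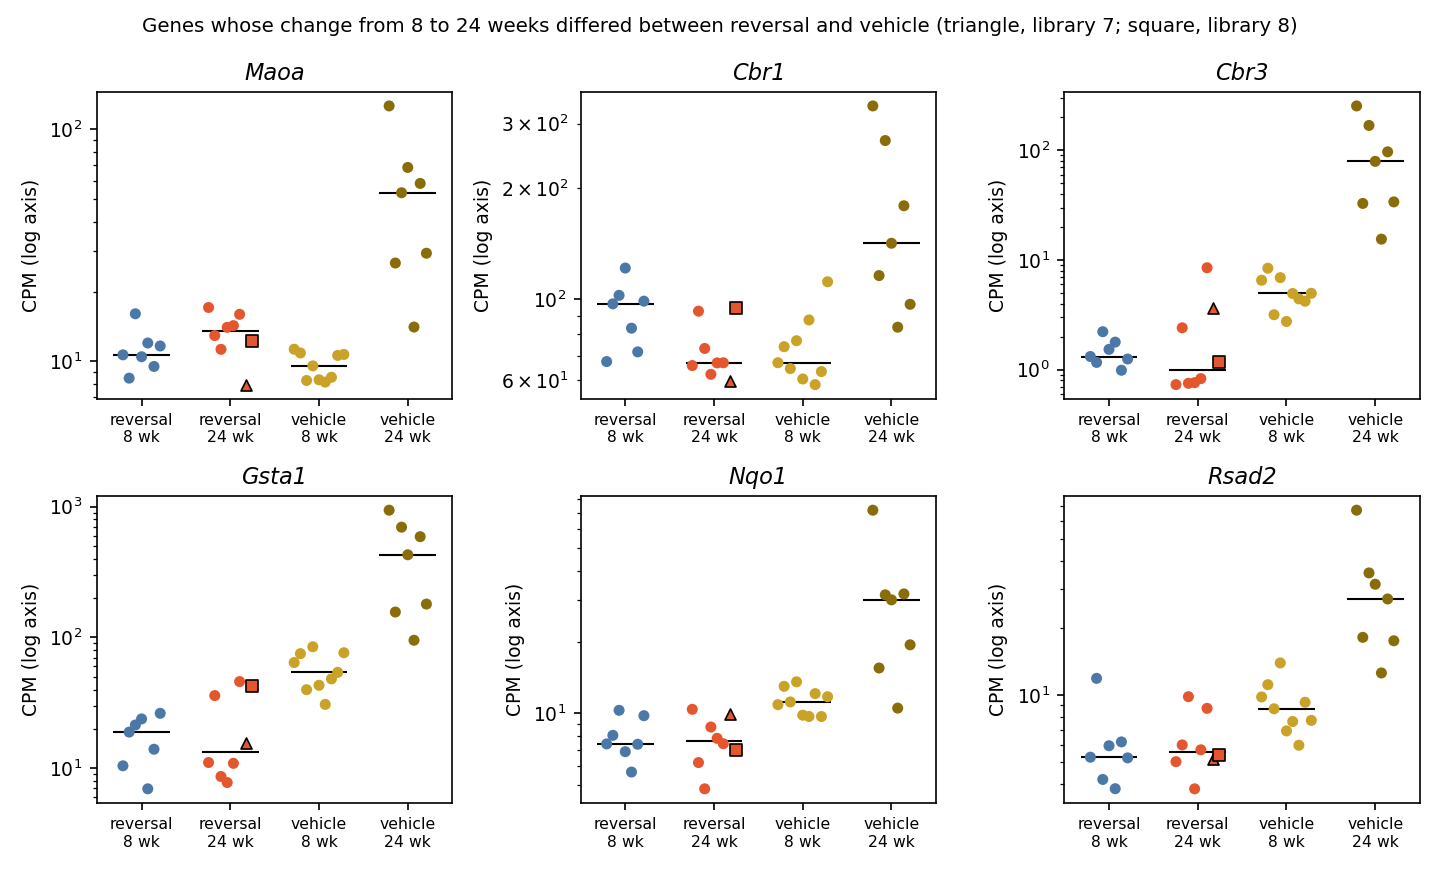
CPM on a log axis is plotted for 6 genes in chow reversal and vehicle libraries of 8 and 24 weeks, with medians as bars, library 7 as a triangle and library 8 as a square. Maoa ran to 126 CPM and Cbr3 to 254.5 CPM in vehicle mice at 24 weeks, while the chow reversal libraries stayed at or under 17.1 and 8.51 CPM.

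Against semaglutide, given while the diet went on, the change from 8 to 24 weeks differed in 3 genes (0.0201%), 2 higher (0.0134%) and 1 lower (0.00671%): Zfp719 (1.29 ± 0.25, adjusted p = 0.0349) and the RNA helicase gene Ddx52 (0.53 ± 0.11, adjusted p = 0.0375) with the higher change in chow reversal, and Hamp2 (-3.15 ± 0.66, adjusted p = 0.0478) with the lower. Ddx52 was 12.8 to 16.6 CPM at 8 weeks and 16.0 to 22.9 CPM at 24 weeks of chow. With all libraries, 3993 of the 14904 genes had an unadjusted p under 0.05 in this contrast. The count past the threshold was 0 without chow reversal libraries 7 and 8, with 3921 genes at an unadjusted p under 0.05 (26.3%). It was 1635 without chow reversal library 2, and DESeq2 called 291 genes. Semaglutide library 8 of 24 weeks has library number 16363, apart from 16182 to 16252 of its group. Its share of counts in predicted genes (symbols Gm followed by digits, or ending Rik) was 4.57%, against 1.70% to 2.45% in the rest of its group. No fit of this contrast left it out.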

How the data were processed

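RNA from the left lateral lobe was sequenced on an Illumina NextSeq after a directional library preparation. Per the labels and the methods of the study, the authors aligned reads to the Ensembl GRCm38 transcriptome with STAR 2.7.3a, quantified them with Salmon 1.2.0, checked them with FastQC 0.11.9 and Picard, and list DESeq2 without a version. The deposited values are estimated counts per gene (7.55% fractional), neither normalized nor logged, and were rounded here. The annotation release and strand setting used for counting are not given in the sources used here. Symbols and coordinates came from a GENCODE annotation of GRCm38, which named 55227 of 55487 identifiers; the 260 others held 0.0155% of the counts and were kept. Depth per library limits the precision of genes of a few counts.

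Tests ran in R 4.3.3 with edgeR 4.0.16, where genes of low count were removed with filterByExpr, libraries were scaled with TMM, and 1 quasi-likelihood fit of all 10 groups (77 libraries, 14904 genes, common dispersion 0.0660) gave all contrasts, with Benjamini-Hochberg adjustment over all genes tested. Log2 CPM used a prior count of 2. The method was tested on simulated data. DESeq2 1.42.0 replaces outlying counts in groups of this size, which here concerned 1, 5 and 1 genes in libraries 6, 7 and 8 of 24 weeks. It was therefore also run without replacement, with its filter for genes with outlying counts switched off as well. The other alternatives were RLE factors, library totals, no filter, fewer groups in the fit, a term for sets of consecutive library numbers, a slope over weeks, and each library left out. Fits without libraries 7 and 8 together, without chow library 5 and without replacement were added after seeing the data.

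The rule for named genes took the largest changes that stay past the threshold whichever 1 library is left out (0 genes), up to 8 that do not (7 genes), up to 3 members of each list with the smallest p, up to 6 genes with the smallest p in each difference of changes, and Timp1, Timp2, Mmp13 and Col1a1. Of these, a selection is described, and the genes named for libraries 2, 7 and 8, Hamp, Mt1, Saa1, Lgals3, Mmp12, Trem2, Gpnmb, H2-Eb1, Cd74, Ciita, Ccl5, Dbp, Arntl and Nebl were chosen after their values were seen. The groups and the 40 lists (732 genes, 682 tested) were chosen with earlier results of these data known. One list held genes the study names; 13 of its 17 members were tested and 0 passed. Replicates are separate mice, and no pairing of mice across times exists.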

Additional observations from a re-analysis of the deposited data

Results flagged for a closer look

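Each of the following values is the gap from the highest or lowest library to its nearest neighbour, as a share of the range of its group on the log2 CPM scale, and exceeded Dixon's 95% limit for groups of that size. Chance flags about 1 in 20 groups, and many of these genes were named because 1 library stood out, so their number says nothing of how common such values are.

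Library 7 of 24 weeks was the highest for Cxcl14 (0.784), Orm2 (0.697), Prtn3 (0.584), the B-cell chemokine gene Cxcl13 (0.638), H19 (0.737), the trefoil factor gene Tff3 (0.637) and Igfbp1, which encodes an insulin-like growth factor binding protein (0.598). It was the lowest for Sult2a8 (0.9), Cyp4a10 (0.795), Cyp4a14 (0.808), the organic anion transporter gene Slco1a1 (0.607), Dbp (0.66) and Pfkfb1 (0.574). Library 8 of 24 weeks was the highest for Ugt2b37 (0.67), Fkbp5 (0.665), Srxn1 (0.868), Slc39a10 (0.786) and Slc39a14 (0.608), and the lowest for Ms4a1 (0.622), the retinoic acid hydroxylase gene Cyp26a1 (0.575), the collagen gene Col5a3 (0.623) and Taz (0.543). Library 2 of 24 weeks was the highest for the glutathione transferase gene Gstp1 (0.529), and library 1 the lowest for the T-cell receptor gene Trac (0.536). At 8 weeks, library 2 was the highest for the antiviral gene Rsad2 (0.579) and library 5 for Mmp12 (0.599).

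The change from 8 to 24 weeks differed between chow reversal and vehicle by edgeR's interaction contrast, as log2 values of chow reversal minus vehicle, for Hamp2 (-3.04), H2-DMa (-1.2), Maoa (-2.26), Cbr1 (-1.58), Cbr3 (-3.58), Sfn (-3.26), Il1f9 (-4.83), Mgst3 (-1.29), Nqo1 (-1.44), Gstm1 (-1.32), Gsta1 (-2.59), Gstm4 (-1.04), Rsad2 (-1.7), Oasl1 (-1.59) and Nebl (1.54). Between chow reversal and semaglutide it differed for Zfp719 (1.29), Ddx52 (0.53) and Hamp2 (-3.15).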

How the results depend on the processing

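The count of genes past the threshold at 24 against 8 weeks (7) was 35 with DESeq2. It was 43 with DESeq2 without replacement and filtering of outlying counts, named without replacement below. As a slope over weeks the count was 40, and with only the 3 chow reversal groups in the fit 1. It was 0 with only the 2 groups compared, with a term for library number sets, or without libraries 7 and 8. With 1 library left out it ran from 0 to 58. The count for the difference from vehicle (32) was 59 with DESeq2, 58 without replacement, 16 with no filter and 69 without libraries 7 and 8, and 12 to 114 with 1 library left out. The count for the difference from semaglutide (3) was 291 with DESeq2, with and without replacement, and 0 with library totals, with no filter and without libraries 7 and 8, and 0 to 1635 with 1 library left out. DESeq2 called 1 gene at 16 against 8 weeks, where edgeR called 0. Without libraries 7 and 8, 24 against 16 weeks gave 0 and 24 weeks against lifelong chow 481. The cause of these shifts was not tested.

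Diet-changed genes past the threshold (4) were 19 with DESeq2, 0 without libraries 7 and 8 and 0 to 30 with 1 library left out. Acute phase genes had 2 calls with DESeq2 and 0 to 5 with 1 library left out, and the clock and stress response lists 1 with DESeq2 and 0 to 1. The chemokine and conjugation lists had 0 without libraries 7 and 8, and 0 to 1 with 1 library left out. Of the 40 lists, 35 had no call in any of these fits. The log2 fold change turned for Cxcl14 (-0.0304 without libraries 7 and 8, -0.103 without library 7, and up to 2.89 with another library left out), Syt12 (-0.251) and Mt2 (-0.00134, both without libraries 7 and 8). For the named genes, 1738 values kept their side of the threshold, 68 lost it, 62 gained it and 4 turned. No paired analysis was possible because the labels give no replicate numbers and each mouse was killed at 1 time. Depth limits genes under about 1 CPM.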
